A study of Mus musculus with 10 samples.

Results

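The enzyme families that oxidise, hydrolyse and conjugate foreign compounds were compared between kidneys of Rragc+/+ and Rragc S74N/+ mice. Members were taken by symbol, as all genes that start with Cyp2, Cyp3a, Ugt1a, Ugt2, Ugt3, Sult, Ces1, Ces2, Ephx, Gsta, Gstm, Gstp, Gstt, Gsto, Gstk or Fmo, without the pseudogene symbols that end in -ps. This gave 65 of the 13837 genes in the deposited table. Of these, 60 belong to the families, and 5 share only the first letters of a family name (Cyp20a1, Cyp24a1, Cyp26b1, Cyp27a1 and Fmod, the last a matrix proteoglycan). No Cyp3a or Gstp gene was analysed here. RNA came from whole kidneys of 3-month-old C57BL/6 mice, 5 of them Rragc+/+ and 5 Rragc S74N/+, with 1 library per mouse. The S74N allele encodes an active form of RagC, a GTPase that signals nutrient sufficiency to mTORC1. It was placed in the germline with CRISPR, together with silent changes, and is carried on 1 of the 2 copies in every cell of these mice, while Rragc+/+ mice carry neither. The labels used here do not give the sex of the mice, and the Y-linked transcript Ddx3y was read in all 10 libraries, at 317 to 478 normalized counts.

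Foreign compounds and many internal lipids and steroids are made more soluble in steps. Cytochromes P450 (Cyp) and flavin monooxygenases (Fmo) add oxygen, carboxylesterases (Ces) and epoxide hydrolases (Ephx) split esters and epoxides with water, and transferases then attach glucuronic acid (Ugt), sulfate (Sult) or glutathione (Gst), after which transporters carry the product out of the cell. In the kidney these enzymes lie mostly in the proximal tubule, the segment that takes up filtered and secreted compounds, and several of the genes stand in tandem clusters of close relatives.

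Libraries were made with a 3′ method, in which a transcript gives reads near its poly(A) end only, so that long and short transcripts are counted alike and the normalized counts of different genes can be set side by side. The recovered reads numbered 6501552 to 7996087 per library. The library codes form 2 runs, with endings 38 to 40 (2 Rragc+/+ mice and 1 Rragc S74N/+ mouse) and 53 to 66 (3 Rragc+/+ and 4 Rragc S74N/+ mice). Differences were tested on the log2(normalized count + 1) scale with limma, in the 13197 genes that reached 10 normalized counts in at least 5 of the 10 mice, with p-values adjusted over all of them and a threshold of 0.05. A log2 fold change on this scale is Rragc S74N/+ minus Rragc+/+, and for a gene with few counts it is smaller than the true change. Of the 65 genes, 62 were tested. Cyp2j7, Ugt2b5 and Sult2b1, with means of 7.41, 10.2 and 7.68 normalized counts, did not reach the filter. In whole tissue, fewer cells of a type and less RNA per cell cannot be told apart.

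Of the 62 genes tested, 15 differed by genotype (24.2%), with 10 genes up and 5 genes down in Rragc S74N/+ kidneys. Of all genes tested, 3.69% passed, 1.67% upwards and 2.02% downwards. The families were chosen with earlier results of these data known, and the shares are set side by side as a description. With edgeR on the recovered reads, 15 of the 62 and 3.64% of all genes passed. The genes that rose were Cyp2d12, Gsta2, Ugt2b37, Ces2e, Gstm1, Cyp2d9, Ces2c, Cyp2e1, Gsta3 and Ces1f. The genes that fell were Ugt2b34, Sult1c2, Cyp2d26, Cyp2u1 and Cyp2d22. All 15 lie in the families proper, and none of the 5 genes that share only first letters passed (log2 fold changes of -0.13 to -0.02). Over the 57 tested family members, the median log2 fold change was 0.15, and 38 of them had a positive value, beside a median of 0.0005 and a share of 50.1% positive over all genes. The genotypes did not overlap in 14 of the 57, with Rragc S74N/+ mice above in 8 and below in 6. Of all genes, 5% did not overlap, 2.29% with Rragc S74N/+ mice above and 2.71% with them below. Of the 45 family members whose mean was 50 normalized counts or more, 14 passed, and among the 12 below that mean 1 passed. In the libraries with code endings 53 to 66 alone 12 of the 62 symbols passed, 11 of them among the 15, beside 346 of all genes. With the run of codes as a covariate 18 passed, all 15 included, beside 832 of all genes. The main fit called 487 of all genes. The other run holds too few mice to be tested alone.

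**Figure D1:**
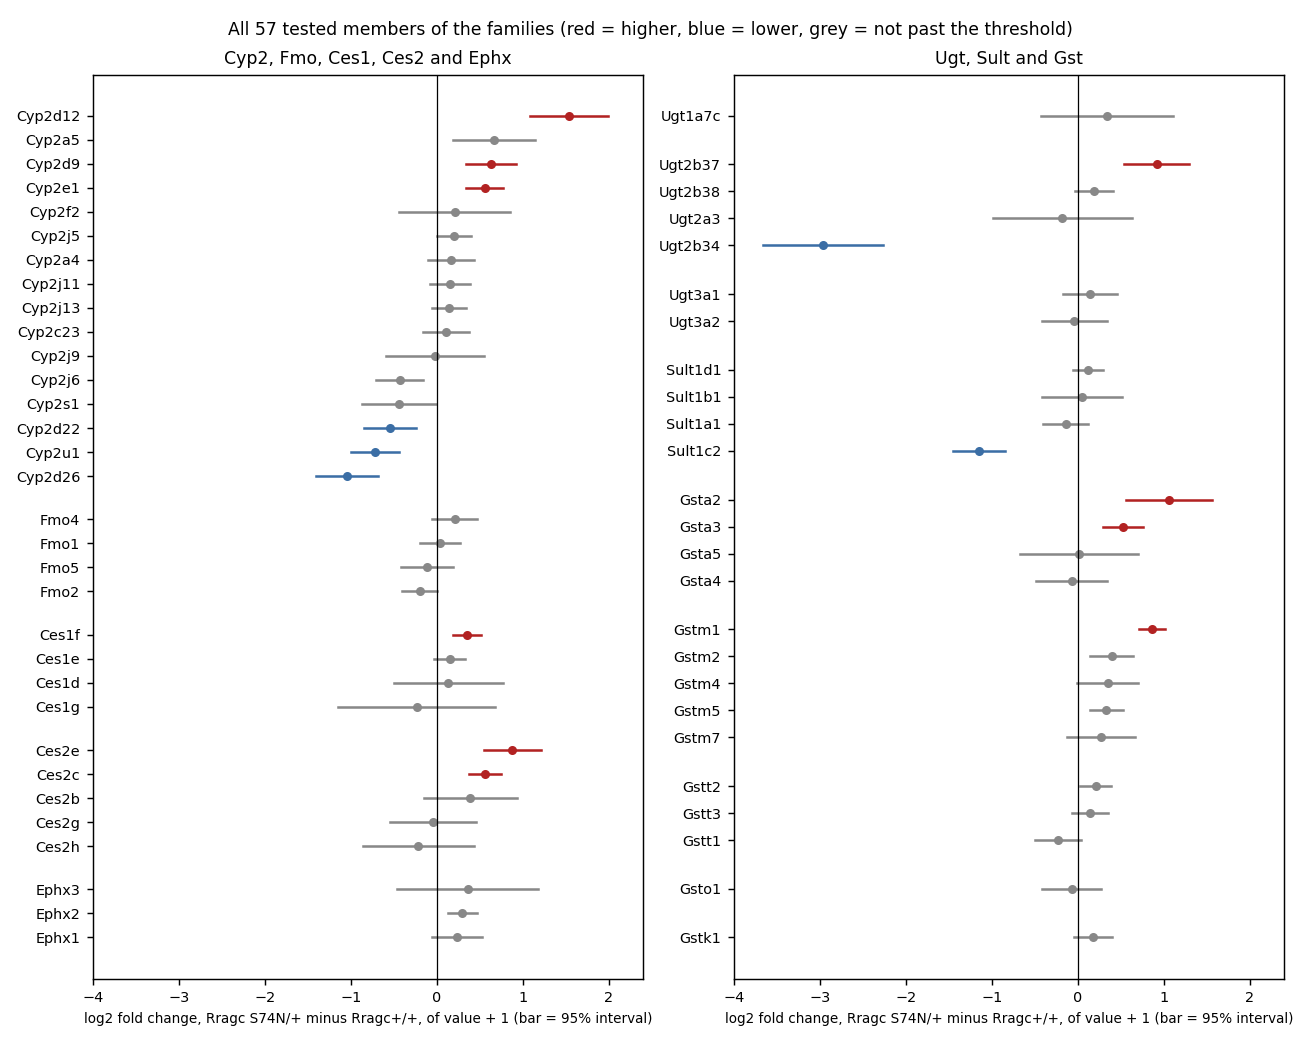
Log2 fold change of each of the 57 tested family members with its 95% interval, by family, with members past the threshold in red (higher in Rragc S74N/+) or blue (lower). The 10 red and 5 blue genes are spread over the Cyp2, Ces, Ugt2, Sult, Gsta and Gstm families, and Ugt2b34 stands farthest from 0, at -2.96.

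Summed over the 60 members, the Rragc+/+ kidneys held 47869, 46903, 48575, 49032 and 48481 normalized counts, and the Rragc S74N/+ kidneys 58697, 60408, 60184, 60360 and 59281. Every Rragc S74N/+ mouse lay above every Rragc+/+ mouse, and the ratio of the means was 1.24. As a share of all normalized counts, the members took 0.673 ± 0.0118% (SD, n = 5) in Rragc+/+ and 0.839 ± 0.0412% in Rragc S74N/+ mice. With mitochondrial transcripts left out of the total, the shares were 0.931 ± 0.0345% and 1.12 ± 0.0399%, again without overlap. The sum weights the abundant members, and Cyp2j5 alone made up 20.8% of it. By family, the sums did not overlap in Cyp2 (ratio 1.22), Ces1 (1.20), Ces2 (1.46), Ephx (1.22) and Gstm (1.70), all higher in Rragc S74N/+ mice. They overlapped in Fmo (0.97), Ugt2 (1.44), Ugt3 (1.04), Sult (0.97), Gsta (1.67) and Gstt (1.05), and in the families with 1 member in the table, Ugt1a (1.43), Gsto (0.97) and Gstk (1.14). The sums are given as a description, with no test.

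**Figure D2:**
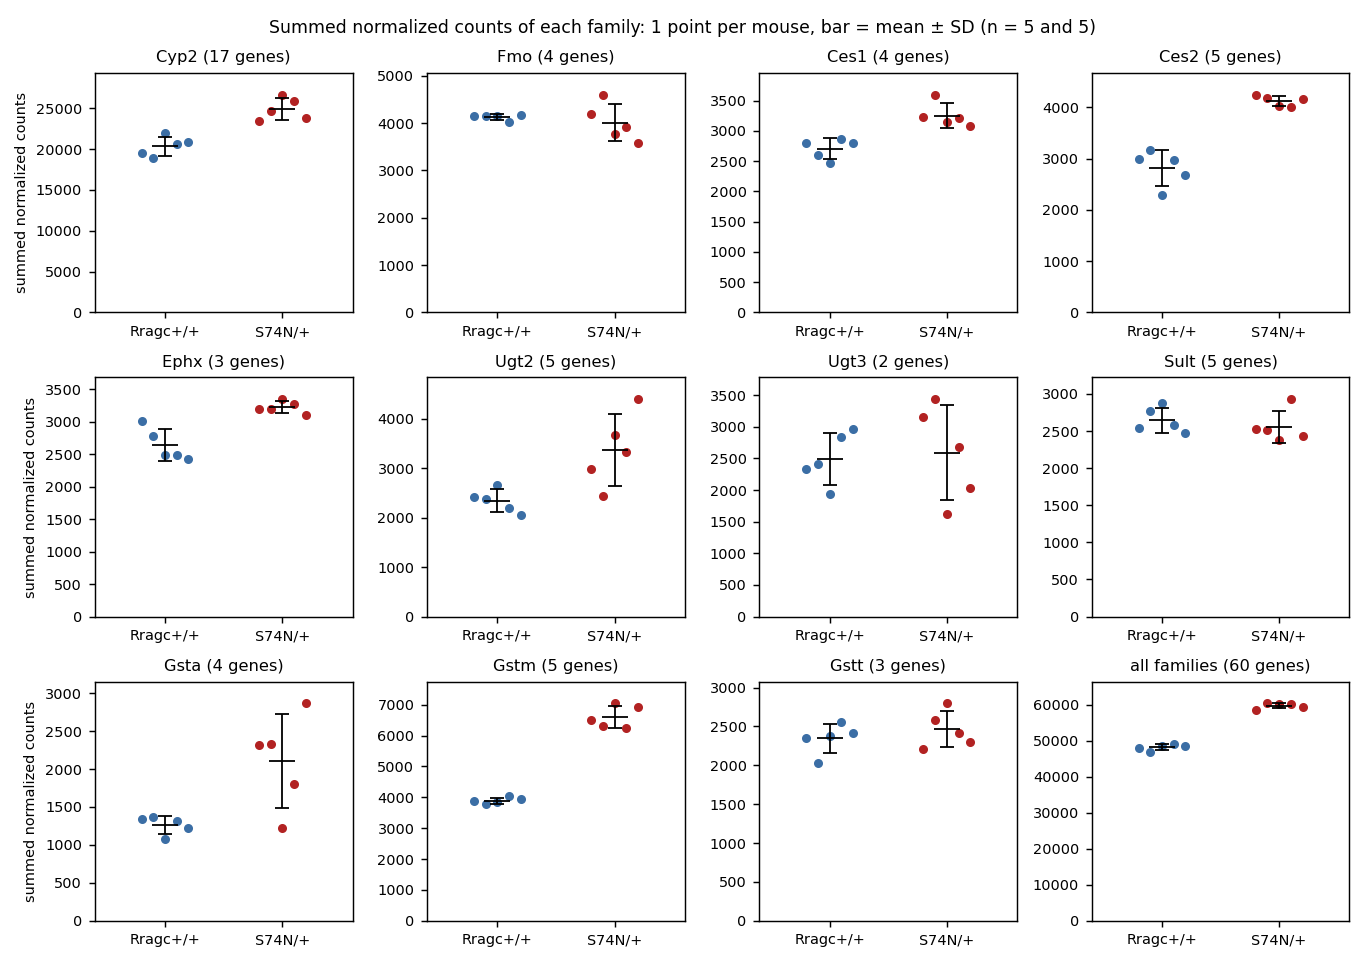
Summed normalized counts per mouse for the families with more than 1 member and for all 60 members, with the mean and SD of 5 mice per genotype. The Cyp2, Ces1, Ces2, Ephx and Gstm sums separate the genotypes, and the sum over all families lies at 46903 to 49032 in Rragc+/+ and 58697 to 60408 in Rragc S74N/+ mice.

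The Cyp2 family holds membrane-bound P450 enzymes of the endoplasmic reticulum. Of its 17 members in the table, 16 were tested, and 3 rose and 3 fell. All 4 members of the Cyp2d subfamily in the table passed, in both directions. Cyp2d12 was at 477, 509.6, 302, 225 and 209 normalized counts in the Rragc+/+ mice and at 1242, 785, 849, 762 and 1139 in the Rragc S74N/+ mice. The genotypes did not overlap, and the lowest Rragc S74N/+ mouse stood well above the highest Rragc+/+ mouse (log2 fold change 1.54, SE 0.22, limma adjusted p = 2.98e-04). Cyp2d9, known as a steroid 16-alpha-hydroxylase of male mice, was at 913, 840.4, 1287, 1067 and 1042 in Rragc+/+ against 1535, 1702, 1962, 1716 and 1088 in Rragc S74N/+ mice. In it the fifth Rragc S74N/+ mouse lay within the Rragc+/+ range (log2 fold change 0.62, SE 0.14, limma adjusted p = 0.0138), and the call was lost without the 2 Rragc S74N/+ libraries with the most Alb, the albumin transcript of hepatocytes (log2 fold change 0.54, adjusted p = 0.102) and in the libraries with code endings 53 to 66 alone (log2 fold change 0.49, adjusted p = 0.144). Cyp2d26 was at 584, 401, 403, 447 and 469.8 in Rragc+/+ and 330.1, 222, 157, 170 and 271 in Rragc S74N/+ kidneys, all of the latter lower (log2 fold change -1.04, SE 0.17, limma adjusted p = 0.00127). Cyp2d22, the mouse enzyme often set beside human CYP2D6, was at 93.1, 101, 108, 106 and 108 in Rragc+/+ against 93.0, 69.7, 75.7, 56.3 and 62.3 in Rragc S74N/+ mice. The first Rragc S74N/+ mouse all but met the lowest Rragc+/+ mouse (log2 fold change -0.55, SE 0.14, limma adjusted p = 0.0401), and the call was lost when any one of 7 of the 10 mice was left out (all but the first Rragc+/+ mouse and the first and the third Rragc S74N/+ mice), with adjusted p up to 0.108. It was also lost without both libraries with the most Alb (log2 fold change -0.44, adjusted p = 0.179).

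These 4 genes share a cluster on chromosome 15. In the RefSeq gene order of GRCm38.p6 the Cyp2d genes run Cyp2d22, Cyp2d11, Cyp2d10, Cyp2d9, Cyp2d12, Cyp2d34, Cyp2d40 and Cyp2d26, so that both genes that fell stand at the ends and both that rose between them. Within each mouse, Cyp2d12 was 0.446 to 1.27 times the level of Cyp2d26 in Rragc+/+ and 3.54 to 5.42 times in Rragc S74N/+ kidneys. The order of Cyp2d12 and Cyp2d26 was thus the same in all 5 Rragc S74N/+ mice and differed among Rragc+/+ mice. Cyp2d12 was called higher and Cyp2d26 lower, so the separation of this ratio restates those calls. The transcripts are close relatives at the end that is counted. Of the 50-base words in the last 400 bases of the longest transcript, 33.0% of those of Cyp2d26 also occurred in another gene (most in Cyp2d40), 26.8% of Cyp2d9 (most in Cyp2d41-ps), 18.2% of Cyp2d12 (most in Cyp2d9) and 0 of Cyp2d22. Reads of the first 3 that lie in shared words may not be assignable to 1 gene, and their values are uncertain to that extent.

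Cyp2e1, which oxidises ethanol and other small molecules and is one of the most abundant P450 transcripts here, was at 3333, 3141, 2904, 3070.1 and 3162 in Rragc+/+ and 3493, 4708, 5150.4, 5474 and 4333 in Rragc S74N/+ mice. The genotypes did not overlap, although the first Rragc S74N/+ mouse was only just above the highest Rragc+/+ mouse (log2 fold change 0.55, SE 0.10, limma adjusted p = 0.00376). Cyp2e1 remained past the threshold in all 24 other settings, with log2 fold changes from 0.45 to 0.71. Part of its counted end is a repeat that occurs in 109 other genes (24.2% of the words). Cyp2u1, a long-chain fatty acid hydroxylase, was at 137, 126, 149.7, 118 and 99.3 in Rragc+/+ against 74, 71.5, 88.3, 73.1 and 71.0 in Rragc S74N/+ mice, with every Rragc S74N/+ mouse below every Rragc+/+ mouse (log2 fold change -0.72, SE 0.13, limma adjusted p = 0.00341). In the libraries with code endings 53 to 66 alone it was no longer past the threshold (log2 fold change -0.66, adjusted p = 0.0613).

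The most abundant member of all, Cyp2j5, an epoxygenase of arachidonic acid in the proximal tubule, was at a mean of 10468 ± 1369 SD (n = 5 in this and all later means) in Rragc+/+ against 11955 ± 878 SD in Rragc S74N/+ kidneys and did not pass (log2 fold change 0.20, 95% interval -0.0035 to 0.40, adjusted p = 0.337). It took 49.5% of the Cyp2 sum. None of the 5 tested Cyp2j genes passed over all 10 mice without a covariate. Cyp2j6 came closest and was below the Rragc+/+ range in all 5 Rragc S74N/+ mice, at 101, 155, 139, 162 and 121 against 166, 173, 177, 196 and 193 (log2 fold change -0.43, 95% interval -0.71 to -0.16, adjusted p = 0.0780). It passed with the run of codes as a covariate (log2 fold change -0.49, adjusted p = 0.0153) and without the 2 libraries with the most Alb (log2 fold change -0.60, adjusted p = 0.0279). Of the Cyp2a genes, whose products hydroxylate testosterone and coumarin, Cyp2a4 had a log2 fold change of 0.16 (95% interval -0.10 to 0.43, adjusted p = 0.618) and Cyp2a5 one of 0.67 (95% interval 0.19 to 1.14, adjusted p = 0.136). Their promoters of 250 bases are identical in 245 of 251 aligned columns (97.6%), and 33.3% of the counted end of Cyp2a4 is shared, mostly with Cyp2a5. The Cyp2a5 levels overlapped between genotypes, and 3 of the 5 Rragc S74N/+ mice stood above the highest Rragc+/+ mouse, at 427, 991, 704, 925 and 504 against 474, 259, 408, 646 and 426. Without the 2 Rragc S74N/+ libraries with high Cfd, the first and the fifth, Cyp2a5 passed (log2 fold change 1.02, adjusted p = 0.00821). The other tested Cyp2 genes did not pass, with log2 fold changes of 0.14 (95% interval -0.05 to 0.33, adjusted p = 0.526) for Cyp2j13, 0.15 (95% interval -0.08 to 0.38, adjusted p = 0.585) for Cyp2j11, 0.10 (95% interval -0.16 to 0.37, adjusted p = 0.772) for Cyp2c23, -0.44 (95% interval -0.87 to -0.01, adjusted p = 0.314) for Cyp2s1, 0.21 (95% interval -0.44 to 0.85, adjusted p = 0.818) for Cyp2f2 and -0.03 (95% interval -0.60 to 0.54, adjusted p = 0.980) for Cyp2j9.

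None of the 4 Fmo genes, which oxidise nitrogen and sulfur atoms of drugs, passed. The highest of them, Fmo1, was at 1953 ± 220.2 SD in Rragc+/+ against 2018 ± 341 SD in Rragc S74N/+ mice (log2 fold change 0.04, 95% interval -0.19 to 0.27, adjusted p = 0.914). Its sign changed with the setting. The other log2 fold changes were -0.20 (95% interval -0.41 to 0.0031, adjusted p = 0.336) for Fmo2, 0.21 (95% interval -0.05 to 0.46, adjusted p = 0.475) for Fmo4 and -0.11 (95% interval -0.41 to 0.19, adjusted p = 0.776) for Fmo5.

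**Figure D3:**
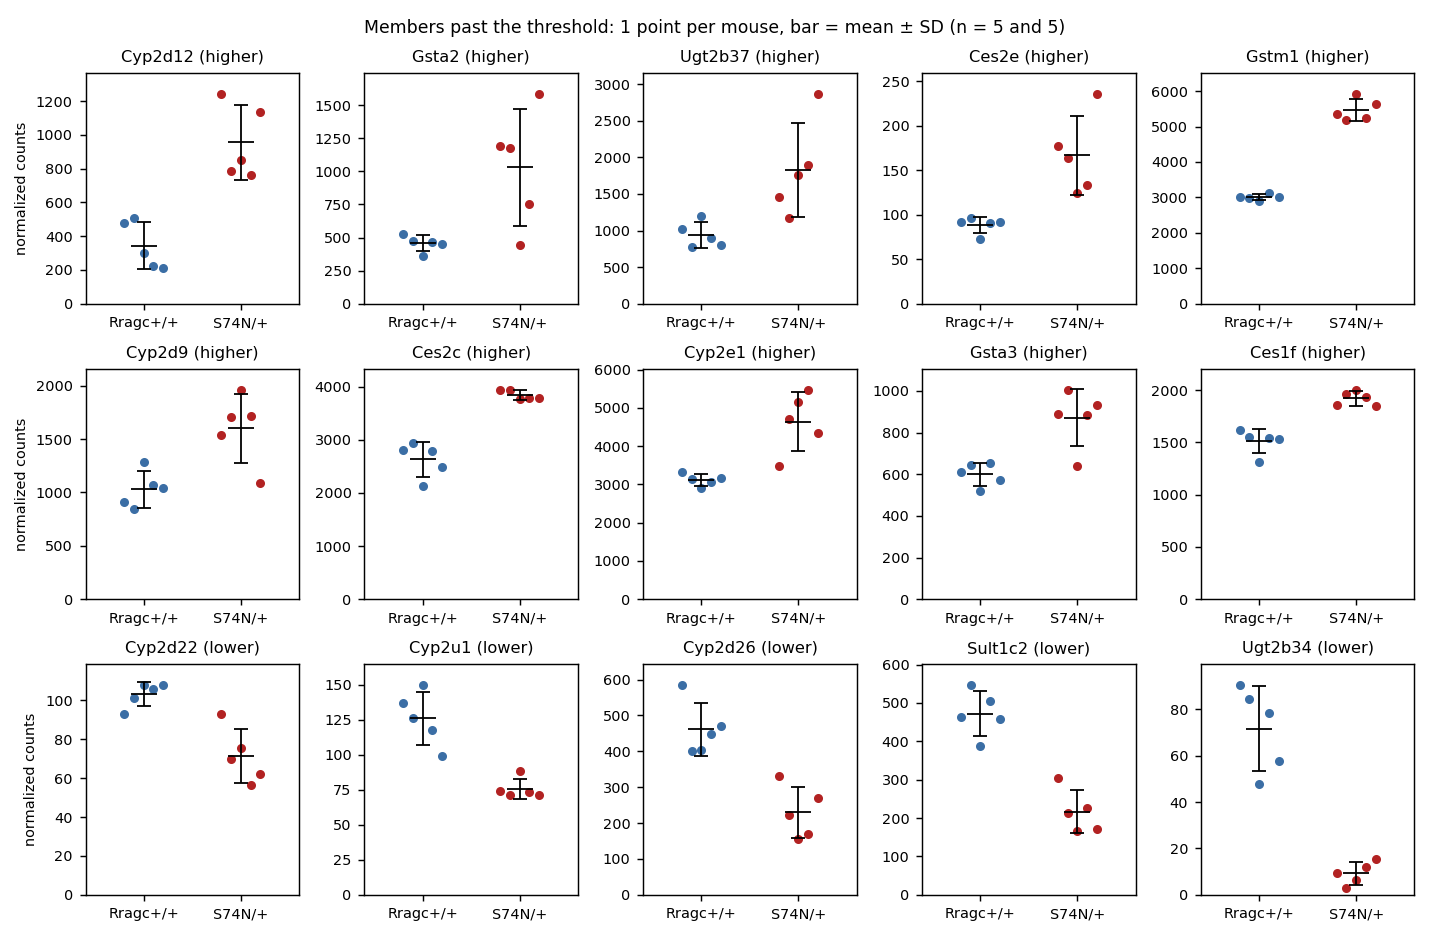
Normalized counts of the 15 members past the threshold, 1 point per mouse, with the mean and SD of 5 mice per genotype and axes that start at 0. Gstm1 lies between 2907 and 3139 in the Rragc+/+ group and between 5193 and 5914 in Rragc S74N/+ mice, while Cyp2d9, Gsta2, Gsta3 and Ugt2b37 overlap in 1 or more mice.

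Among the hydrolases, 3 of 12 passed, all higher in Rragc S74N/+ kidneys. Ces2c, a carboxylesterase of the endoplasmic reticulum and the main Ces2 transcript with 93.3% of the family sum, was at 2802, 2939, 2129.7, 2797 and 2486 in Rragc+/+ and 3942, 3928, 3765, 3784 and 3795 in Rragc S74N/+ mice. The Rragc S74N/+ values lay close together (CV 2.22%, against 12.4% in Rragc+/+) and above all others (log2 fold change 0.56, SE 0.09, limma adjusted p = 8.68e-04). Ces2e, the next gene in the cluster, was at 91.3, 96.0, 72.6, 91.1 and 91.8 in Rragc+/+ against 177, 164, 124, 133 and 235 in Rragc S74N/+ mice, again without overlap (log2 fold change 0.87, SE 0.16, limma adjusted p = 0.00274). Both were past the threshold in all 24 other settings. Ces2c shared 36.8% of its counted end, mostly with the pseudogene Ces2d-ps, and Ces2e none. The other Ces2 genes did not pass, with log2 fold changes of 0.39 (95% interval -0.16 to 0.93, adjusted p = 0.536) for Ces2b, -0.04 (95% interval -0.54 to 0.45, adjusted p = 0.960) for Ces2g and -0.22 (95% interval -0.86 to 0.43, adjusted p = 0.812) for Ces2h.

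Ces1f, the highest of the Ces1 genes, was at 1623, 1549, 1313, 1547 and 1532 in Rragc+/+ and 1856, 1963, 2004, 1931 and 1847 in Rragc S74N/+ mice. The change was the smallest of the 15, yet the genotypes did not overlap (log2 fold change 0.35, SE 0.08, limma adjusted p = 0.0136). Without the 2 libraries with the most Alb it was no longer past the threshold (log2 fold change 0.33, adjusted p = 0.0769). Its neighbours Ces1e and Ces1g, on either side, did not pass, with log2 fold changes of 0.15 (95% interval -0.03 to 0.32, adjusted p = 0.447) and -0.24 (95% interval -1.15 to 0.68, adjusted p = 0.859), and nor did Ces1d, at 0.13 (95% interval -0.50 to 0.76, adjusted p = 0.892).

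None of the 3 epoxide hydrolases passed in the limma fit over all 10 mice. Ephx2, the soluble enzyme that turns fatty acid epoxides into diols, lay at 2861, 2643, 2336, 2341 and 2236 in Rragc+/+ and 3015, 3041, 3184, 3087 and 2862 in Rragc S74N/+ mice. The ranges nearly touched without overlapping and the adjusted p was just above the threshold (log2 fold change 0.30, 95% interval 0.13 to 0.47, adjusted p = 0.0508), and it passed in 6 of the 24 other settings. Among these were DESeq2 on the recovered reads (log2 fold change 0.29, adjusted p = 0.0144), limma with the run of codes as a covariate (log2 fold change 0.33, adjusted p = 0.00929), code endings 53 to 66 alone (log2 fold change 0.40, adjusted p = 0.0160) and the fit without the first Rragc+/+ mouse (log2 fold change 0.35, adjusted p = 0.0193). DESeq2 called 4.91% of all genes, and 18 of the 62 symbols. Ephx1, the microsomal enzyme, had a log2 fold change of 0.23 (95% interval -0.06 to 0.52, adjusted p = 0.476), and the low Ephx3 one of 0.36 (95% interval -0.46 to 1.17, adjusted p = 0.743).

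Of the Ugt genes, 8 were in the table, 7 were tested, and 1 rose and 1 fell. Ugt2b34 had the largest change of all members. It was at 90.4, 84.5, 47.6, 78.3 and 57.7 in Rragc+/+ and 9.49, 2.79, 6.31, 11.9 and 15.6 in Rragc S74N/+ mice, the latter resting on 3 to 16 reads per library. No Rragc S74N/+ mouse came near the Rragc+/+ range (log2 fold change -2.96, SE 0.33, limma adjusted p = 2.49e-05), and the means were 71.7 ± 18.2 SD in Rragc+/+ against 9.20 ± 4.93 SD in Rragc S74N/+ mice. All 5 Rragc+/+ mice but only 2 of the Rragc S74N/+ mice reached 10 normalized counts, so the gene passed the filter through the genotype in which it was high. Its call held in each of the 23 other settings in which it was tested, with log2 fold changes from -3.32 to -2.47; in the remaining setting it fell under a mean of 50. Ugt2b37 changed the other way, with 1017, 773, 1199, 897 and 809 in Rragc+/+ and 1457, 1171, 1763, 1899 and 2865 in Rragc S74N/+ mice. The second Rragc S74N/+ mouse lay within the Rragc+/+ range and the fifth far above the others (log2 fold change 0.92, SE 0.18, limma adjusted p = 0.00526). With robust variances the adjusted p was 0.0513 and without the variance trend 0.0594.

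Ugt2b38, the most abundant of the family by the mean of all 10 mice, though below Ugt2b37 in the mean of the Rragc S74N/+ mice, stands nearby in the same cluster on chromosome 5, with only Ugt2a3 between it and Ugt2b37. It was at 1293, 1500.3, 1397, 1203 and 1161 in Rragc+/+ and 1496, 1223, 1884, 1382 and 1500.4 in Rragc S74N/+ mice, which overlapped (log2 fold change 0.18, 95% interval -0.04 to 0.41, adjusted p = 0.453). Within each mouse the ratio of Ugt2b37 to Ugt2b38 was 0.515 to 0.858 in Rragc+/+ and 0.936 to 1.91 in Rragc S74N/+ kidneys, without overlap. The pair is shown because the promoters, the 250 bases before the start, are the most alike among the Ugt2 genes compared. They were identical in 225 of 264 aligned columns (85.2%), whereas the promoter of Ugt2b34 was 54% identical to that of Ugt2b37. The promoters of Cyp2f2 and Cyp2j11, of different subfamilies, also reached 54% in such an alignment. The sequences are those of RefSeq on GRCm38.p6, written from 5′ to 3′ on the minus strand that is transcribed, chr5:87254789-87255038 for Ugt2b37 and chr5:87424204-87424453 for Ugt2b38. Capitals mark the bases that differ or have no partner in the alignment.
Ugt2b37: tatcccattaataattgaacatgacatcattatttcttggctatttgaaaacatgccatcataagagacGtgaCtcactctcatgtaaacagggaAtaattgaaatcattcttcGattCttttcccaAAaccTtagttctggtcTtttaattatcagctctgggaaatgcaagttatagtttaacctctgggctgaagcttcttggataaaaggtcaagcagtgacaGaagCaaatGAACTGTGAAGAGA
Ugt2b38: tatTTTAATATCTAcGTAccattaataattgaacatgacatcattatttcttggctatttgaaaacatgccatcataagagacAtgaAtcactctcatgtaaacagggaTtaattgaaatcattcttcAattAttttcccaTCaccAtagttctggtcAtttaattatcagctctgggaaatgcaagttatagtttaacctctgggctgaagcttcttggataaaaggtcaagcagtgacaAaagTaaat
The last 14 bases of the first and the runs of capitals near the start of the second have no partner, because the windows are set off against each other, and the capitals between them are substitutions. No 50-base word at the counted end of either gene occurred in another gene.

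The remaining Ugt genes that were tested did not pass. Ugt3a2, which uses sugars other than glucuronic acid, was at 1737 ± 321 SD in Rragc+/+ against 1739 ± 543 SD in Rragc S74N/+ mice (log2 fold change -0.04, 95% interval -0.42 to 0.34, adjusted p = 0.951), with a sign that changed between settings, and Ugt3a1 had a log2 fold change of 0.14 (95% interval -0.18 to 0.45, adjusted p = 0.744). Ugt1a7c, the only Ugt1a symbol in the table, was at 6.50 to 39.9 normalized counts (log2 fold change 0.34, 95% interval -0.43 to 1.11, adjusted p = 0.736). The Ugt1a genes share their last exons, and reads in them cannot be given to 1 gene, so that Ugt1a levels are uncertain here, although no 50-base word in the last 400 bases of the longest Ugt1a7c transcript occurred in another gene. Ugt2a3 was at a mean of 14.1 (log2 fold change -0.18, 95% interval -0.99 to 0.63, adjusted p = 0.878).

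Sulfotransferases add a sulfate group to phenols, steroids and amines. Of 4 tested, 1 fell. Sult1c2 was at 464, 546, 389, 504 and 457 in Rragc+/+ and 304, 214, 166, 227 and 172 in Rragc S74N/+ mice. The highest Rragc S74N/+ mouse lay below the lowest Rragc+/+ mouse, and the mean was 0.459 times that of Rragc+/+ (log2 fold change -1.15, SE 0.14, limma adjusted p = 7.93e-05). It was past the threshold in all 24 other settings, and none of the words at its counted end were shared. Sult1d1, which sulfates catecholamines among others and holds 80.8% of the family sum, was at 2017 ± 187 SD in Rragc+/+ against 2188 ± 195 SD in Rragc S74N/+ mice (log2 fold change 0.12, 95% interval -0.06 to 0.30, adjusted p = 0.574). Sult1a1 and Sult1b1 did not pass either, with log2 fold changes of -0.14 (95% interval -0.41 to 0.12, adjusted p = 0.666) and 0.05 (95% interval -0.42 to 0.51, adjusted p = 0.954).

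Glutathione S-transferases were represented by 14 tested genes, of which 3 rose and none fell. Gstm1, the main mu-class transcript, showed the smallest adjusted p of all members. It was at 3015, 2986, 2907, 3139 and 2998 in the Rragc+/+ mice and 5359, 5193, 5914, 5239.5 and 5625 in the Rragc S74N/+ mice. Both genotypes were tight, with CVs of 2.78% and 5.52%, and lay far apart, with a ratio of means of 1.82 (log2 fold change 0.86, SE 0.07, limma adjusted p = 5.41e-07). The gene was past the threshold in all 24 other settings, with log2 fold changes of 0.78 to 0.90. All 5 Gstm genes had positive values. Gstm5 was at 332, 322, 348, 386 and 347 in Rragc+/+ against 507, 397, 429.8, 419 and 429 in Rragc S74N/+ mice, without overlap, and did not pass (log2 fold change 0.33, 95% interval 0.14 to 0.52, adjusted p = 0.0550). Gstm2, next to Gstm1 in the cluster, was at 430.0, 379, 456, 409 and 455 in Rragc+/+ against 521, 545, 572, 436 and 757 in Rragc S74N/+ mice, which overlapped (log2 fold change 0.39, 95% interval 0.14 to 0.64, adjusted p = 0.0857). With DESeq2 both passed, at adjusted p of 0.0202 and 0.0413. Gstm5 also passed with the run of codes as a covariate (log2 fold change 0.33, adjusted p = 0.0349) and with the filter at a mean of 50 (log2 fold change 0.33, adjusted p = 0.0483), and in code endings 53 to 66 alone it did not (log2 fold change 0.22, adjusted p = 0.289). Gstm2 also passed without the fourth Rragc S74N/+ mouse (log2 fold change 0.48, adjusted p = 0.0307) and without the 2 libraries with the most Alb (log2 fold change 0.52, adjusted p = 0.0401). Gstm4 and Gstm7 had log2 fold changes of 0.34 (95% interval -0.01 to 0.70, adjusted p = 0.336) and 0.26 (95% interval -0.13 to 0.66, adjusted p = 0.566). Gstm1 made up 80.8% of the Gstm sum. Within each mouse the ratio of Gstm1 to Gstm2 was 6.376 to 7.88 in Rragc+/+ and 7.431 to 12.02 in Rragc S74N/+ kidneys, which overlapped.

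The alpha-class genes were less even between mice. Gsta2 was at 530.4, 472, 362, 466 and 451 in Rragc+/+ and 1195, 1174, 441, 756 and 1583 in Rragc S74N/+ mice. The third Rragc S74N/+ mouse lay within the Rragc+/+ range, the fourth above it, and the other 3 far above it (log2 fold change 1.06, SE 0.24, limma adjusted p = 0.0157). Gsta3, which conjugates activated aflatoxin, was at 611, 642, 521, 654 and 570.2 in Rragc+/+ against 888, 1005, 641, 886 and 931 in Rragc S74N/+ mice, with the third Rragc S74N/+ mouse again the lowest and within the Rragc+/+ range (log2 fold change 0.53, SE 0.11, limma adjusted p = 0.00966). Both calls were lost without the 2 Rragc S74N/+ libraries with high Cfd, an adipocyte transcript (log2 fold change 0.69, adjusted p = 0.113 for Gsta2 and log2 fold change 0.47, adjusted p = 0.0648 for Gsta3) and without the 2 with the most Alb (log2 fold change 1.06, adjusted p = 0.0603 and log2 fold change 0.44, adjusted p = 0.0855). They were also lost with code endings 53 to 66 alone (log2 fold change 1.07, adjusted p = 0.0927 and log2 fold change 0.56, adjusted p = 0.0564). The ratio of Gsta2 to Gsta3 within each mouse was 0.695 to 0.8685 in Rragc+/+ and 0.6885 to 1.7 in Rragc S74N/+ kidneys, which overlapped. For Gsta2, 46.7% of the counted end was shared, mostly with Gm10639. Gsta4, which conjugates lipid aldehydes, did not pass (log2 fold change -0.07, 95% interval -0.49 to 0.34, adjusted p = 0.910), nor did Gsta5 (log2 fold change 0.02, 95% interval -0.67 to 0.70, adjusted p = 0.990).

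Promoters of these genes are known for response elements of the factors that answer to oxidants and to foreign compounds. RefSeq promoters on GRCm38.p6 were found for 50 of the 65 symbols and 11 of the 15 that passed. The 250 bases before the start were searched on both strands, and a gene counted if any of its listed promoters matched. The core of the antioxidant response element, TGACNNNGC, occurred in 11.5% of all 27025 genes with a promoter. It occurred in 3 of the 50, Gsta3, Gstm5 and Gstm7. The core of the xenobiotic response element, TNGCGTG, occurred in 4.76% of all genes with a promoter, and in Gsta2 and Sult1d1 among the 50. Among the 8 promoters of genes that rose, each motif occurred in 1, and among the 3 of genes that fell in 0. An E-box, CACGTG, stood in 1 of the 50 (Cyp2j6, 6.86% of all genes with a promoter), and a D-box, TTANGTAA, in 3 (Ces1e, Ces1g and Sult1a1, 2.44% of all genes with a promoter). No promoter held more than 1 of the 4 motifs. The sequences of both alpha-class genes that rose are given with the match in capitals, for Gsta3 (plus strand, chr1:21240335-21240584) the antioxidant response element that begins 121 bases before the start, and for Gsta2 (minus strand, chr9:78347146-78347395) the xenobiotic response element that begins 9 bases before it.
Gsta3: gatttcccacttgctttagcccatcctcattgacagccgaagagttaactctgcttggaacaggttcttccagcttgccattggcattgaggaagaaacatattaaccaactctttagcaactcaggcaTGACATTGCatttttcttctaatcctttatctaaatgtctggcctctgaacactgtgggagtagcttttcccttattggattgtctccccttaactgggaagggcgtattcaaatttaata
Gsta2: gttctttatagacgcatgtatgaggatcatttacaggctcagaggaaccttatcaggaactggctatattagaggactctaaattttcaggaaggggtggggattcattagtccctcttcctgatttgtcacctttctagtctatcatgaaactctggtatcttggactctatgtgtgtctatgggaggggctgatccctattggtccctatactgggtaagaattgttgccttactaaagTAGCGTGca
A match of these letters is a description of the window and was not tested as a site.

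No gene of the theta, omega and kappa classes passed. Gstt2, the highest theta-class gene, was at 1012 ± 49.3 SD in Rragc+/+ against 1174 ± 137 SD in Rragc S74N/+ mice (log2 fold change 0.21, 95% interval 0.02 to 0.39, adjusted p = 0.245), while Gstt1 had a log2 fold change of -0.23 (95% interval -0.49 to 0.03, adjusted p = 0.411) and Gstt3 one of 0.14 (95% interval -0.07 to 0.34, adjusted p = 0.583). Gsto1, which reduces dehydroascorbate, was at 154 ± 18.0 SD in Rragc+/+ against 150.0 ± 40.4 SD in Rragc S74N/+ mice (log2 fold change -0.07, 95% interval -0.41 to 0.26, adjusted p = 0.882), with a sign that changed in 3 settings. Gstk1, the mitochondrial and peroxisomal form, was at 354 ± 25.6 SD in Rragc+/+ against 402 ± 55.8 SD in Rragc S74N/+ mice (log2 fold change 0.18, 95% interval -0.04 to 0.40, adjusted p = 0.468).

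The members that passed did not follow 1 order of mice within the Rragc S74N/+ group. The third Rragc S74N/+ mouse had the lowest value of the group in 6 of the 15, Ces2c, Ces2e, Cyp2d26, Gsta2, Gsta3 and Sult1c2, and the highest in 4, Ces1f, Cyp2d9, Cyp2u1 and Gstm1. The fifth had the highest value in Ces2e, Gsta2, Ugt2b34 and Ugt2b37, and the lowest in Ces1f, Cyp2d9 and Cyp2u1. The first, whose library code belongs to the other run of codes, was highest in 5 of the 15, among them 3 of the 5 that fell. Of the 19 pairs of members that are direct neighbours among protein-coding genes, 1 was called in the same direction (Ces2c and Ces2e), none in opposite directions, and in 7 a single gene of the pair was called.

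Around the enzymes, the factors known to drive them were examined as transcripts. Of 14 tested regulators none passed (limma, 3.69% of all genes), and their median log2 fold change was -0.02. Nfe2l2, which encodes NRF2, the factor bound to antioxidant response elements, was at 691 ± 77.1 SD in Rragc+/+ against 625 ± 78.9 SD in Rragc S74N/+ mice (log2 fold change -0.15, 95% interval -0.36 to 0.07, adjusted p = 0.561), and its inhibitor Keap1 at 392 ± 54.1 SD in Rragc+/+ against 378 ± 56.2 SD in Rragc S74N/+ mice (log2 fold change -0.06, 95% interval -0.31 to 0.20, adjusted p = 0.882). Ahr, the aryl hydrocarbon receptor, was below the Rragc+/+ range in all 5 Rragc S74N/+ mice, at 41.7, 29.7, 45.2, 34.6 and 36.0 against 57.5, 56, 46.5, 50.4 and 49.1, and did not pass (log2 fold change -0.47, 95% interval -0.81 to -0.13, adjusted p = 0.142). Tef, a clock-controlled factor that binds D-boxes, did not pass either (log2 fold change 0.43, 95% interval 0.13 to 0.73, adjusted p = 0.119). Dbp, a related factor whose transcript swings over the day, ranged over 14.2 to 98.5 normalized counts in the Rragc S74N/+ group and over 16.0 to 66.5 among Rragc+/+ mice.

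Genes outside the families that are known NRF2 targets included 18 tested, of which 5 rose and none fell, beside 1.67% of all genes upwards and 2.02% downwards, with a median log2 fold change of 0.30 and 16 positive values. This list was chosen with earlier results of these data known, and the shares are given as a description. Nqo1, a quinone reductase, was at 128, 121, 129, 177 and 164 in Rragc+/+ and 229.5, 267, 190.2, 218 and 281 in Rragc S74N/+ mice, without overlap (log2 fold change 0.72, SE 0.13, limma adjusted p = 0.00381). Abcc4, an efflux transporter of conjugates, was at 205, 191, 235, 267 and 219 in Rragc+/+ against 646, 724, 317, 375 and 1002 in Rragc S74N/+ mice, all Rragc S74N/+ mice above the others (log2 fold change 1.33, SE 0.23, limma adjusted p = 0.00177). Pgd and Me1, which make NADPH, had log2 fold changes of 0.41 (SE 0.11, limma adjusted p = 0.0424) and 0.31 (SE 0.08, limma adjusted p = 0.0346). Gclm, the modifier subunit of the first enzyme of glutathione synthesis, also rose (log2 fold change 0.31, SE 0.08, limma adjusted p = 0.0398), and its catalytic partner Gclc did not pass (log2 fold change 0.28, 95% interval -0.10 to 0.66, adjusted p = 0.512). The calls of Gclm, Pgd and Me1 were lost in 13, 12 and 11 of the 24 other settings, with log2 fold changes that stayed between 0.24 and 0.35, 0.29 and 0.51, and 0.24 and 0.37. Gclm was lost with edgeR (log2 fold change 0.30, adjusted p = 0.0505) and without any one of 7 mice (all but the second and the third Rragc+/+ mice and the third Rragc S74N/+ mouse), Pgd without any one of 8 (all but the third Rragc+/+ and the fourth Rragc S74N/+ mouse) and Me1 without any one of 7 (all but the second Rragc+/+ mouse and the third and the fifth Rragc S74N/+ mice), with adjusted p up to 0.132, 0.122 and 0.111 in these fits. Nqo1 and Abcc4 lost their calls in 1 setting, code endings 53 to 66 alone (log2 fold change 0.60, adjusted p = 0.0689 and log2 fold change 1.18, adjusted p = 0.0613). Hmox1 (log2 fold change 0.22, 95% interval -0.39 to 0.84, adjusted p = 0.790), Txnrd1 (log2 fold change 0.31, 95% interval 0.10 to 0.52, adjusted p = 0.114) and Srxn1 (log2 fold change 0.22, 95% interval 0.02 to 0.41, adjusted p = 0.260) did not pass. The negative values were those of Ftl1 (log2 fold change -0.36, 95% interval -0.63 to -0.10, limma adjusted p = 0.1415) and Fth1 (log2 fold change -0.02, 95% interval -0.23 to 0.19, limma adjusted p = 0.955), and neither passed. Of the 3 targets of the aryl hydrocarbon receptor tested, Nqo1 was the one that rose, and Cyp1b1 (log2 fold change -0.05, 95% interval -0.34 to 0.25, adjusted p = 0.917) and Tiparp (log2 fold change -0.26, 95% interval -0.58 to 0.06, adjusted p = 0.470) did not pass.

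Of 13 genes that supply electrons and cofactors to the enzymes, 4 rose and none fell, beside the same shares of all genes, with a median log2 fold change of 0.28. Earlier results of these data were known when this list, too, was chosen. Ugdh, which makes UDP-glucuronic acid for the Ugt enzymes, was at 204, 291, 276, 343 and 316 in Rragc+/+ and 357, 504, 404, 457 and 389 in Rragc S74N/+ mice, without overlap (log2 fold change 0.57, SE 0.13, limma adjusted p = 0.0177). Gss, the second enzyme of glutathione synthesis, was at 1267, 1266, 1088, 1053 and 1179 in Rragc+/+ against 1625, 1452, 1687, 1476 and 1355 in Rragc S74N/+ mice (log2 fold change 0.38, SE 0.09, limma adjusted p = 0.0173). Cyb5r3, a reductase that feeds electrons to cytochrome b5, was at 484, 434, 422, 441 and 473 in Rragc+/+ against 534, 601, 595, 629 and 565 in Rragc S74N/+ mice, and all Rragc S74N/+ mice were above the Rragc+/+ mice in both genes (log2 fold change 0.37, SE 0.08, limma adjusted p = 0.0132). Por, the reductase that serves the P450 enzymes, did not pass (log2 fold change 0.29, 95% interval 0.11 to 0.46, adjusted p = 0.0626), and neither did the enzymes that make the sulfate donor, Papss1 (log2 fold change 0.03, 95% interval -0.17 to 0.22, adjusted p = 0.931) and Papss2 (log2 fold change 0.09, 95% interval -0.09 to 0.26, adjusted p = 0.706). Ugdh lost its call in 5 of the 24 other settings, among them without the second (log2 fold change 0.50, adjusted p = 0.0504) and without the fourth Rragc S74N/+ mouse (log2 fold change 0.54, adjusted p = 0.0521), Gss in 3, among them without the fourth Rragc+/+ mouse (log2 fold change 0.34, adjusted p = 0.0682), and Cyb5r3 in 2. Without the 2 libraries with the most Alb, Ugdh (log2 fold change 0.44, adjusted p = 0.141), Gss (log2 fold change 0.41, adjusted p = 0.0532) and Cyb5r3 (log2 fold change 0.33, adjusted p = 0.102) were not past the threshold. Gclm and Gclc stand in both lists.

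**Figure D4:**
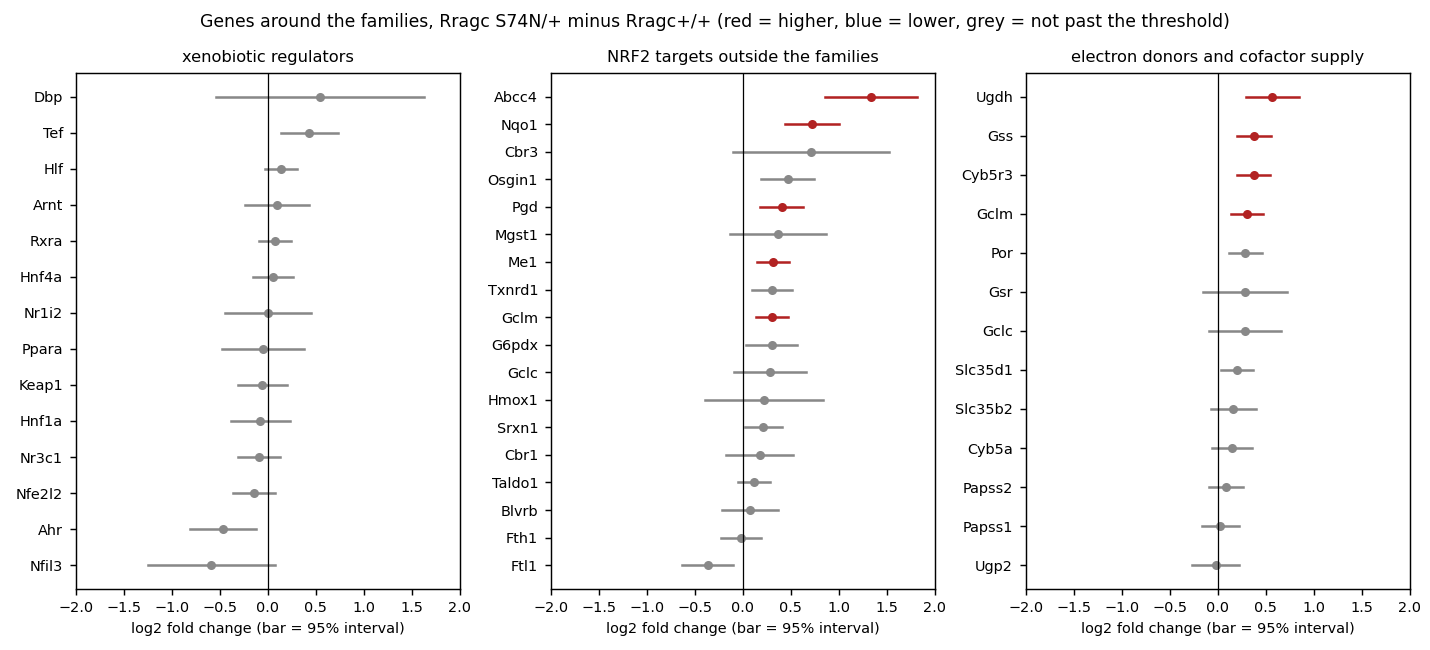
Log2 fold changes with 95% intervals of regulators, NRF2 targets outside the families, and genes of electron and cofactor supply, Rragc S74N/+ minus Rragc+/+. No regulator passes, while Abcc4 (1.33), Nqo1 (0.72), Ugdh (0.57), Pgd (0.41), Gss (0.38), Cyb5r3 (0.37), Me1 (0.31) and Gclm (0.31) pass and are higher.

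Markers of the tubule segments and of other cell types were read in the same libraries, in lists chosen with earlier results of these data known. Beside the calls in these lists and in that of hepatocytes below, 1.67% of all genes tested passed upwards and 2.02% downwards (limma). Of 12 proximal tubule markers, 1 rose (Slc22a6, an organic anion transporter, log2 fold change 0.52) and 2 fell (the glucose transporter Slc5a2, -0.93, and the lactate transporter Slc5a12, -0.95), with a median of 0.08, while Lrp2, Cubn, Slc34a1 and Hnf4a did not pass. The summed level of this list was 71641 to 83980 normalized counts in Rragc+/+ and 78929 to 94097 in Rragc S74N/+ mice. All 3 distal convoluted tubule markers fell, and their sum was 2676 to 3180 in Rragc+/+ and 978 to 1327 in Rragc S74N/+ mice. In the thick ascending limb list 2 of 4 fell (Umod and Egf) and 1 rose (Cldn16), with sums of 29060 to 38407 and 12476 to 21421. Of the intercalated cell list 2 of 4 fell, and of the principal cell list 1 of 4 rose. None of the 3 podocyte, 4 endothelial and 3 leukocyte markers tested passed, and markers of the adrenal gland were not analysed here. The part of these shifts in the levels of the enzymes was not tested.

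Liver expresses many of the same enzymes. Of 4 hepatocyte markers, Alb rose, from 61.2, 41.8, 39.7, 95.4 and 53.4 in Rragc+/+ to 168, 469, 80.9, 449.7 and 189.7 normalized counts in Rragc S74N/+ mice (log2 fold change 1.99, SE 0.37, limma adjusted p = 0.00362), and Apoa1, Serpina1a and Ttr did not pass. The sum of the 4 was 1120 to 1432 in Rragc+/+ and 1856 to 4991 in Rragc S74N/+ mice. In Rragc+/+ mice the means were 865 for Ttr and 353 for Serpina1a, against 58.3 for Alb and 8.05 for Apoa1. The sum thus follows mainly Ttr and Serpina1a, and whether any of the 4 transcripts came from hepatocytes was not tested. Most of the highest sum was Ttr in the fifth Rragc S74N/+ mouse, at 4588 normalized counts, against 993 to 1348 in the other Rragc S74N/+ mice. The markers did not order the mice alike. In the third Rragc S74N/+ mouse Alb lay within the Rragc+/+ range, while Serpina1a was the highest of the 10 mice, at 952 normalized counts against at most 442 in Rragc+/+, and Ttr, at 993, was just above the Rragc+/+ range. This mouse had Cyp2e1, Gstm1 and Cyp2d12 above the Rragc+/+ range and Gsta2 and Gsta3 within it. Without the 2 Rragc S74N/+ libraries with the most Alb, 341 of all genes and 12 of the 62 symbols passed. Of the 12 symbols, 10 were among the 15, and the calls lost were those of Ces1f, Cyp2d22, Cyp2d9, Gsta2 and Gsta3. Their log2 fold changes in those 8 mice were 0.33, -0.44, 0.54, 1.06 and 0.44, against 0.35, -0.55, 0.62, 1.06 and 0.53 in all 10. Cfd was at 807 and 3504 in the first and the fifth Rragc S74N/+ mice and at most 52.3 in the other 8 mice. Of the 4 adipose tissue markers chosen, Cfd was the only one analysed here, and Adipoq, Plin1 and Cidec were not. Whether these libraries held fat thus rests on 1 marker and was not tested. Without those 2 libraries 369 of all genes and 14 of the 62 symbols passed, 13 of the 14 among the 15. Each of these comparisons left out 2 Rragc S74N/+ mice chosen after the values had been seen, so a call can be lost through fewer mice alone. The part of Alb and Cfd in the enzyme levels was not tested.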

How the data were processed

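Kidney RNA of 10 mice was sequenced with QuantSeq 3′ libraries. The authors aligned the reads with TopHat2 2.0.10 to GRCm39, allowing multiple hits, assigned them with HTSeq 0.6.1, using strand, to genes of GENCODE vM26, divided the counts by size factors with DESeq, and deposited this signal for 13837 genes. Multiplying by the size factor gave whole reads for 100% of values, within 0.01 reads, and 0 value columns lacked a sample. The values were tested as log2(value + 1) with limma 3.58.1 in R 4.3.3 (lmFit, eBayes with trend, two-sided, Benjamini-Hochberg over all 13197 genes). edgeR 4.0.16 and DESeq2 1.42.0 were run on the recovered reads as alternatives and called 480 and 648 genes. The limma, edgeR and DESeq2 fits were tested on simulated counts. Named are all members past the threshold, the highest member of each family, members past it only with edgeR or DESeq2, and called genes of the pathway lists. Members and lists were chosen with earlier results of these data known. Shared 3′ words were counted in GENCODE vM21 transcripts and promoters read from RefSeq, both on GRCm38, another build than that of the counts. Sums, ratios and figures used python, pandas and matplotlib.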

Additional observations from a re-analysis of the deposited data

Results flagged for a closer look

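In 11 of 176 groups of 5 values, 1 mouse stood apart from the others of its genotype by more than Dixon's 95% limit, where chance gives about 9. Among genes that passed, Ces2e was low in the third Rragc+/+ mouse, at 72.6 normalized counts, with the next at 91.1, and Cyp2u1 was high in the third Rragc S74N/+ mouse, at 88.3, with the next at 74. Me1 was high in the second Rragc+/+ mouse, at 1842 with the next at 1574. The same mouse was high in Ugt1a7c, at 27.6 with the next at 15.9, and in Ces2b, at 96.0 with the next at 51.0, and was low in Cyp2j9, at 13.3 with the next at 19.2. The fourth Rragc S74N/+ mouse was high in Sult1d1, at 2532 with the next at 2145, and in the Sult sum, at 2930 with the next at 2521. The Fmo sum was low in the fourth Rragc+/+ mouse, at 4019 with the next at 4151. Fmod, no enzyme but taken by its letters, was high in the first Rragc S74N/+ mouse, at 66.4 with the next at 43.7. Cfd, an adipocyte transcript, was at 3504 in the fifth Rragc S74N/+ mouse, with the next at 807.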

How the results depend on the processing

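Of 838 values of the 35 named genes under 24 other settings, 739 kept their direction and side of the threshold, and the 15 members that passed never changed sign. Without the variance trend 291 genes and 9 members passed (5 of them higher), with Ces1f, Cyp2d22, Cyp2d9, Gsta2, Gsta3 and Ugt2b37 lost. With the code run as a covariate 832 genes passed, and the cause was not tested. Leaving out 1 mouse gave 295 to 466 genes (310 without the fourth and 295 without the fifth Rragc+/+ mouse) and 14 to 16 members, 10 or 11 higher and 4 or 5 lower, and Cyp2d22 was the one member of the 15 lost in these fits. With edgeR 15, with DESeq2 18, with robust variances 14 and with a mean of at least 50 16 members passed. Over all genes 480, 648, 503 and 412 passed in these settings, the last from a smaller set of genes tested. Signs changed in 3 genes, none of which passed. Fmo1 was at -0.0173 with quantile normalization, -0.0087 without the 2 libraries with the most Alb and -0.029 to 0.098 without 1 mouse; Ugt3a2 at 0.0008 with DESeq2 and -0.17 to 0.12 without 1 mouse; and Gsto1 at 0.0385 without those 2 libraries and -0.182 to 0.0348 without 1 mouse. Both exclusions of 2 libraries were chosen after the values had been seen. No paired analysis was run, because the genotypes are different mice with 1 library each and the labels give no pairs. Mice were numbered here within each genotype in the order of the library codes, and equal numbers do not mark matched mice. Depth limits members under 50 normalized counts, such as Ugt2b34 with 3 to 16 reads per Rragc S74N/+ library.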

Other observations

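The list of kidney genes known to depend on androgens held 7 tested genes, of which only Cyp2e1 passed (limma, 3.69% of all genes). Cyp4a12a, a fatty acid hydroxylase of male kidney, was the most uneven of them, at 728, 544, 7232, 1236 and 831 normalized counts in Rragc+/+ and 2375, 3491, 8066, 5125 and 1850 in Rragc S74N/+ mice (log2 fold change 1.55, 95% interval 0.45 to 2.65, limma adjusted p = 0.129). The third mouse of each genotype was the highest, and the genotypes overlapped through the third Rragc+/+ mouse. Kap, the most abundant of the list, did not pass (log2 fold change 0.23, 95% interval -0.07 to 0.54, adjusted p = 0.5004).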
